A study of Danio rerio with 16 samples.

Results

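The LIM homeobox genes isl1a, isl2a and lhx9 were followed in whole zebrafish embryos in which retinoic acid (RA) signalling had been raised or blocked. They were chosen by gene symbol, with earlier results of these data known. This gave 3 of the 8793 genes named on the array and 4 of its 15617 probe sets: 2 for isl1a, 1 for isl2a and 1 for lhx9. All 4 passed the filter on low signal. LIM homeodomain proteins are transcription factors that bind DNA through a homeodomain and bind partner proteins, above all the Ldb cofactors, through a pair of LIM domains. Isl1 and Isl2 are best known from motor neurons and from the early sensory neurons, which in zebrafish are the Rohon-Beard and trigeminal cells; isl1a is also expressed in the polster, the anterior prechordal tissue that forms the hatching gland. Lhx9 is known from the developing forebrain and from dorsal interneurons. RA acts through nuclear receptors and patterns the hindbrain and trunk, and an excess of it reduces anterior neural tissue.

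Every embryo was a dechorionated wild type from an incross of AB/WIK hybrid parents and was collected at 11 hours post fertilization (hpf). The 4 groups held 4 independent samples each: all-trans RA at 0.33 µM, the RA receptor antagonist AGN193109 at 10 µM, the same antagonist at 1 µM, and the solvent dimethyl sulfoxide (DMSO) at 2%. The DMSO and antagonist embryos were exposed from 5.25 hpf and the RA embryos from 6.5 hpf, so in comparisons with RA the compound and the start of exposure cannot be told apart. Whole embryos were measured, so fewer cells that express a gene and less RNA per cell cannot be told apart either.

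Array medians lay between 72.8 and 78.3 intensity units, and arrays of 1 group correlated at 0.967 to 0.995 across the tested probe sets, with the lowest value among the arrays of the antagonist at 1 µM. Of 20 marker genes for the tissues of the whole embryo, 19 were named on the array and 18 passed the filter; the exception, the red blood cell gene gata1a, reached 15.7 at most. Some markers of differentiated neurons were dim or absent. The highest reading on any of the 16 arrays was 3.92 for lhx3, a motor neuron gene, 6.75 for the pan-neuronal gene elavl4 and 14.6 for the sensory neuron gene tlx3b. Other neuronal genes were measured. In DMSO embryos the log2 mean was 6.53 for the pan-neuronal gene elavl3 and 6.43 for ebf2. Of 19 early neuron differentiation genes named on the array, 15 passed the filter.

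The first comparison, of RA with DMSO, asked how excess RA acts on these genes. All 4 probe sets fell, in a comparison in which 2.57% of the 11843 tested probe sets were lower. Because earlier results were known when the genes were chosen, such shares give scale and do not test whether the genes respond unusually. The fall was 4.88-fold for isl2a, 4.62-fold for the brighter isl1a probe set and 1.92-fold for the dimmer one, and for lhx9 it could be given only as a lower bound, at least 1.37-fold. All 4 RA arrays lay below all 4 DMSO arrays for each probe set, as they did for 4.64% of all tested probe sets. The median log2 fold change over all tested probe sets was 0.01, and the measured values of the 4 ran from -2.29 (isl2a) to -0.61 (lhx9).

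The brighter of the isl1a probe sets read 141, 179, 221 and 140 on DMSO replicates 1 to 4. On the RA arrays it read 20.2, 47.8, 34.7 and 51.3. The RA group thus lay far below the solvent group and spread more widely, with replicate 1 the lowest. On the log2 scale its mean fell from 7.39 ± 0.31 (SD, n = 4) to 5.18 ± 0.61 (SD, n = 4), a change of -2.21 ± 0.24 (SE; limma adjusted p = 4.35e-06). Its identifier ends in _s_at, a suffix that the array's maker gives to probe sets whose probes can match more than 1 transcript, and which transcripts these are was not analysed here.

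The other isl1a probe set was dimmer and fell less. It read 47.1, 60.4, 58.3 and 58.5 with DMSO and 31.5, 29.7, 26.9 and 28.2 with RA. The groups did not overlap, and the RA arrays were tightly grouped. The log2 mean went from 5.80 ± 0.16 (SD, n = 4) to 4.86 ± 0.10 (SD, n = 4), a change of -0.94 ± 0.13 (SE; limma adjusted p = 0.000103). The fall of the brighter probe set was larger by 1.26 ± 0.36 (SE) on the log2 scale, with an exact two-sided permutation p = 0.0286, the smallest that 4 arrays against 4 can give. Adjusted over the 18 differences between member probe sets that were tested, the value was 0.0735. With same-numbered arrays kept as pairs, the exact sign-flip p was 0.125, the smallest that 4 pairs can give. Both probe sets place isl1a lower under RA. Their measured changes differ in size, but the adjusted value of that difference does not lie under 0.05. The paired test could not give a value under 0.05 with 4 pairs, so it does not decide the question.

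The isl2a probe set was the most even of the 4 in solvent-treated embryos. It read 127, 124, 120 and 115 on the DMSO arrays. On the RA arrays it read 14.3, 28.3, 31.0 and 30.2. Replicate 1 was again the lowest, and it was the single RA array at or below 16, the level that the filter asked for. The log2 mean fell from 6.92 ± 0.06 (SD, n = 4) to 4.63 ± 0.53 (SD, n = 4), a change of -2.29 ± 0.21 (SE; limma adjusted p = 7.61e-07). Ranked from the deepest fall, isl2a took place 47 and the brighter isl1a probe set place 51 among the 11843. Without RA replicate 1 the log2 fold changes were -2.02 for isl2a and -1.93 for isl1a, and both were called. The difference between the falls of the brighter isl1a probe set and isl2a was 0.08 ± 0.21 (SE) on the log2 scale (exact permutation p = 0.743, or 0.891 adjusted over the 18).

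The lhx9 probe set was dim in every group. It read 21.6, 25.3, 16.6 and 25.3 on the DMSO arrays and 15.5, 14.4, 12.7 and 15.1 on the RA arrays. Every RA array lay at or below 16, so its fold is a lower bound against that level. The measured log2 means were 4.45 ± 0.29 (SD, n = 4) and 3.85 ± 0.13 (SD, n = 4), a change of -0.61 ± 0.14 (SE; limma adjusted p = 0.0108). When the fit held only the RA and DMSO arrays, the same change had an adjusted p of 0.0550, and on a scale of log2(value + 16) it was -0.32 (adjusted p = 0.0437). In measured values, the RA change of the brighter isl1a probe set minus that of lhx9 was -1.60 ± 0.43 (SE). For isl2a the same difference was -1.68 ± 0.34, and for the dimmer isl1a probe set -0.34 ± 0.16 (SE). Each had an exact permutation p = 0.0286, or 0.0735 adjusted over all tested differences between member probe sets. The paired sign-flip p of each was 0.125, the smallest that 4 pairs can give. With only a bound for the fall of lhx9, these differences do not decide which gene fell more.

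**Figure D1:**
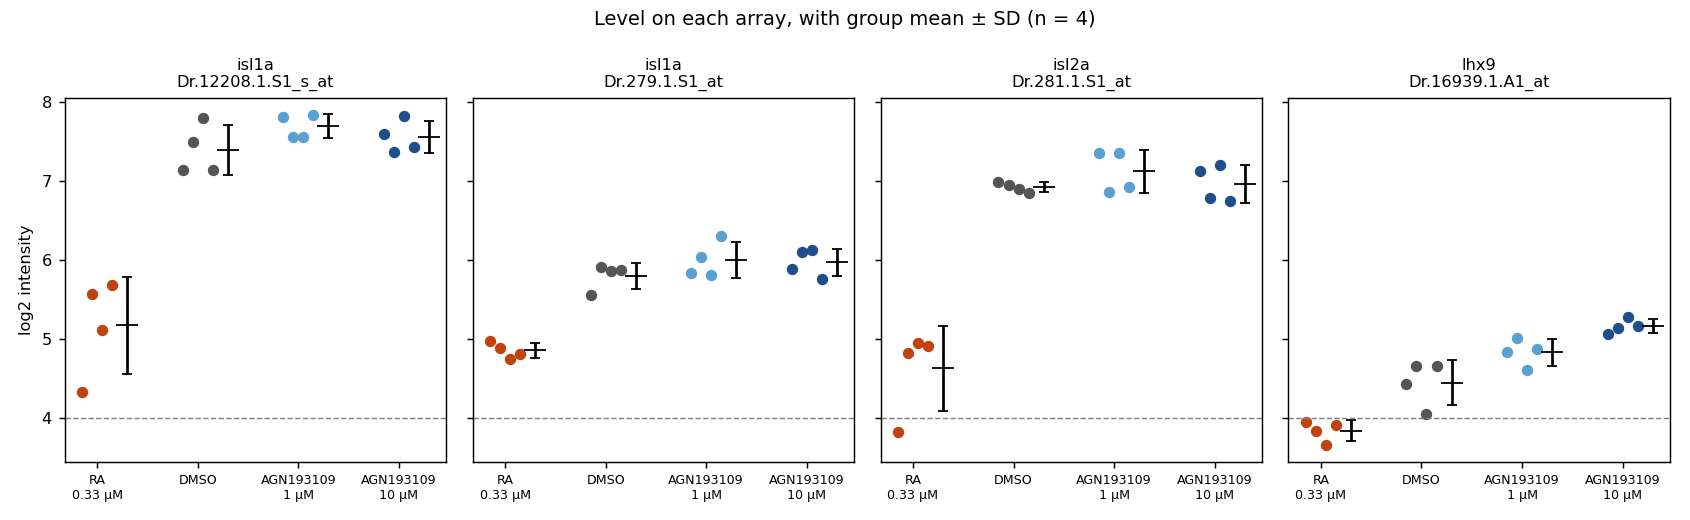
Log2 intensity (vertical axis) of the 4 probe sets on each of the 16 arrays by group, 1 point per array, with the group mean and SD (n = 4) as a bar beside the points; the dashed line is log2 4, the level of the filter. Both isl1a probe sets and isl2a are low with RA and at similar levels in the other 3 groups, whereas the lhx9 means run upward from RA (3.85) over DMSO (4.45) and 1 µM antagonist (4.83) to 10 µM antagonist (5.16).

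To see whether these genes depend on receptor activity in embryos without added RA, the antagonist arrays were compared with the same DMSO arrays. The calls differed between the genes: lhx9 rose with 10 µM, while isl1a and isl2a were called at neither dose. Calls that differ are not by themselves a difference between the genes, which was tested separately below. At 10 µM, 1 of the 4 probe sets was higher, where 0.0844% of all tested probe sets were (0.397% were called in either direction). At 1 µM limma called 0 of the 4, where 0.144% of all were called in either direction. At that dose 1 of the 4 had an unadjusted limma p under 0.05, as did 744 of the 11843 tested probe sets. Both antagonist comparisons and the RA comparison share their DMSO arrays.

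With 10 µM antagonist, lhx9 read 33.6, 35.3, 38.8 and 36.0, and with 1 µM it read 28.6, 32.5, 24.4 and 29.3. All 4 arrays of the higher dose lay above all DMSO arrays, which held for 3.28% of all tested probe sets. At the lower dose 3 of the 4 did. The change at 10 µM was 0.71 ± 0.14 on the log2 scale (SE; limma adjusted p = 0.0266), or 1.64-fold, and ranked 31 from the largest rise. Leaving out DMSO replicate 1 or 3, or any 1 array of the antagonist at 10 µM, ended that call (adjusted p from 0.0657 to 0.121), as did a fit of the 2 groups alone (adjusted p = 0.114). With 16 added before the log2 step the change was 0.45 (adjusted p = 0.0379). At 1 µM the value was 0.38 ± 0.14 (SE; unadjusted p = 0.0134, limma adjusted p = 0.745), with a 95% interval of 0.09 to 0.67.

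The doses themselves differed by 0.33 ± 0.14 (SE) for lhx9, with 10 µM the higher (95% interval 0.04 to 0.62; limma adjusted p = 0.554). Their ranges did not overlap, as for 2.82% of all tested probe sets in that direction. In the order of its levels, 10 µM antagonist over 1 µM antagonist over DMSO over RA, only the neighbours 1 µM antagonist and DMSO overlapped. Over all tested probe sets 0.00844% were called between the doses.

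The brighter isl1a probe set read 193, 165, 226 and 172 at 10 µM and 224, 188, 188 and 227 at 1 µM. These ranges overlap with the DMSO range of 140 to 221. The values were 0.16 ± 0.24 (SE; 95% interval -0.34 to 0.66; limma adjusted p = 1.00) and 0.30 ± 0.24 (SE; 95% interval -0.20 to 0.80; limma adjusted p = 0.786). For the dimmer isl1a probe set, the arrays ran from 54.4 to 69.9 at 10 µM and from 56.3 to 79.0 at 1 µM, with values of 0.17 ± 0.13 and 0.20 ± 0.13 (SE). The intervals of the brighter probe set include 0 and do not show that the antagonist leaves isl1a as it was.

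For isl2a the arrays read 140, 110, 147 and 107 at 10 µM and 163, 116, 163 and 122 at 1 µM. Replicates 1 and 3 were the higher pair at both doses, and the DMSO range of 115 to 127 lay inside the 10 µM range. The values were 0.04 ± 0.21 at 10 µM (SE; 95% interval -0.41 to 0.49) and 0.20 ± 0.21 at 1 µM (SE; 95% interval -0.25 to 0.65). In the order of levels, the 3 groups without RA overlapped with their neighbours for isl1a (both probe sets) and for isl2a, and RA stood below them. The change of lhx9 at 10 µM exceeded that of isl2a by 0.67 ± 0.19 (SE; exact permutation p = 0.0286, 0.0735 adjusted over the 18) and that of the brighter isl1a probe set by 0.55 ± 0.29 (SE; exact permutation p = 0.0857, adjusted 0.193). The change of the dimmer isl1a probe set minus that of lhx9 was -0.54 ± 0.17 (SE; exact permutation p = 0.0286, adjusted 0.0735). For each of these differences the paired sign-flip p was 0.125. No adjusted or paired value lies under 0.05.

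**Figure D2:**
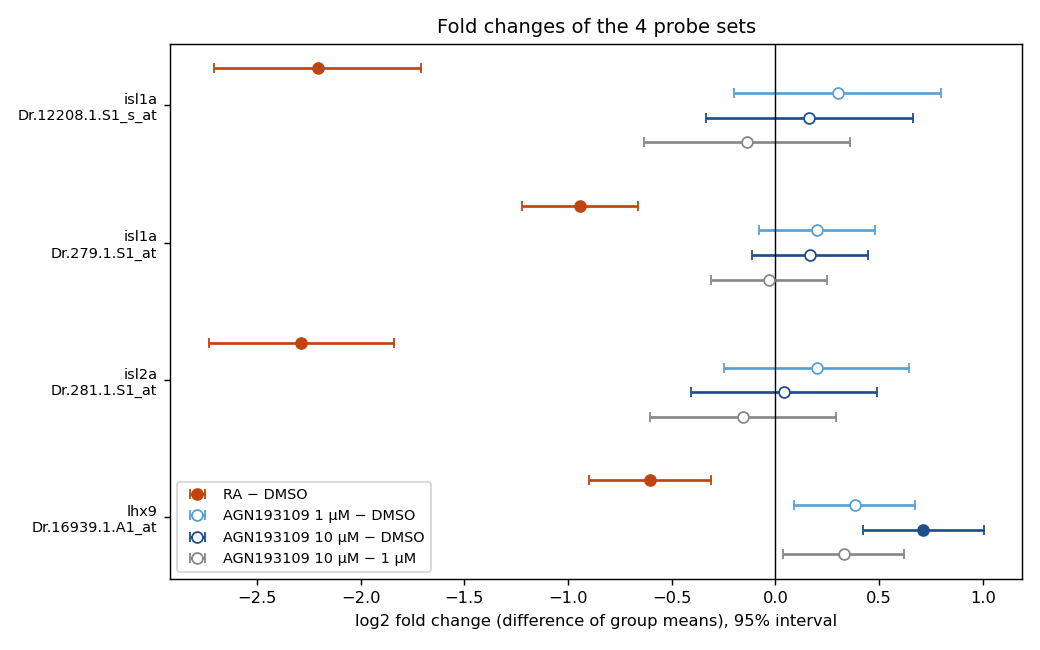
Log2 fold changes (horizontal axis) of the 4 probe sets with 95% intervals from the linear model of all 16 arrays, for RA, 1 µM and 10 µM antagonist against DMSO and for 10 µM against 1 µM; filled points are called at an adjusted p under 0.05. The RA points lie between -2.29 and -0.61, and the only filled antagonist point is that of lhx9 at 10 µM (0.71).

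The groups with raised and with blocked signalling were also set against each other. The solvent arrays do not enter these differences of group means. They do enter the SE and p values, which come from the model of all arrays. All 4 probe sets were lower with RA than with 10 µM antagonist, where 4.06% of all tested probe sets were, and than with 1 µM antagonist, where 3.93% were. Against 10 µM, lhx9 was at least 2.24-fold lower (log2 change -1.32 ± 0.14 SE, limma adjusted p = 2.51e-06). Against the same group, the brighter isl1a probe set had -2.37 ± 0.24 (SE) and isl2a -2.33 ± 0.21 (SE). Against 1 µM, lhx9 was at least 1.78-fold lower, with the brighter isl1a probe set at -2.51 ± 0.24 and isl2a at -2.49 ± 0.21 (SE). The dimmer isl1a probe set differed less, with -1.11 ± 0.13 against 10 µM and -1.14 ± 0.13 against 1 µM (SE).

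Of the other LIM homeobox genes, 17 were listed, 7 were named on the array and 5 were tested. Under RA 1 was called higher and 1 lower, where 3.18% of all tested probe sets were higher and 5.75% were called in either direction. The list's median was 0.08. The gene that fell was lhx5, a forebrain regulator, from a log2 mean of 7.35 ± 0.34 to 4.16 ± 0.91 (SD, n = 4 each), a change of -3.20 ± 0.33 (SE; limma adjusted p = 2.70e-06). Its fall was thus deeper in value than those of isl1a and isl2a, a difference that was not tested. The other, lhx1b, lay below the level of the filter on every array without RA and was tested only through its RA arrays, so its call is no support for a response of the list. Its log2 means were 3.40 ± 0.01 with DMSO and 5.73 ± 0.78 with RA (SD, n = 4 each), at least 3.31-fold higher. Its paralogue lhx1a, a gene of axial and intermediate mesoderm and of interneurons, had 0.35 ± 0.16 (SE; adjusted p = 0.371). The other tested genes, lhx2a and lmx1a, had 0.03 ± 0.13 and 0.08 ± 0.12 (SE). At 10 µM and at 1 µM antagonist limma called 0 of these 5, and 0 had an unadjusted p under 0.05.

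LIM domain cofactors carry or block the partners of LIM homeodomain proteins. Of 14 listed, 10 were tested. Under RA 1 rose and 1 fell, against 3.18% higher and 2.57% lower over all tested probe sets. An unadjusted limma p under 0.05 was found for 5 of the 10, and for 1563 of all 11843 tested probe sets. The fall was that of lmo3, an LMO protein that has LIM domains and no homeodomain, by 0.64 ± 0.18 (SE; limma adjusted p = 0.0482). Its other probe sets fell by 0.70 (adjusted p = 0.00986) and had -0.54 (adjusted p = 0.157). The rise was that of ldb2b, an Ldb cofactor, 0.74 ± 0.20 (SE; limma adjusted p = 0.0410), although its RA and DMSO arrays overlapped. Both calls were lost when most single arrays were left out in turn, with adjusted p up to 0.174 for lmo3 and 0.148 for ldb2b. Without the filter both were lost too (adjusted p = 0.0584 for lmo3 and 0.0543 for ldb2b). The call of this lmo3 probe set was also lost in the 2-group fit (adjusted p = 0.0940), with the pseudocount (0.0504) and in the trended robust fit (0.0530). The Ldb1 genes, the general partners of the family, had -0.02 ± 0.13 (ldb1a) and 0.42 ± 0.25 (ldb1b, SE). With the antagonist limma called 0 of 10 at either dose. The nearest was lmo2, an LMO gene of blood and vessel precursors, with 0.74 ± 0.18 at 10 µM (SE; unadjusted p = 0.000866, limma adjusted p = 0.145) and 0.37 ± 0.18 at 1 µM (SE; adjusted p = 0.745).

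Lists of tissues that express isl1a, isl2a or lhx9 were examined next. The counts under RA that follow stand beside 3.18% higher and 2.57% lower over all tested probe sets. Counts at an unadjusted p under 0.05 stand beside 1563 of the 11843 tested probe sets under RA. For the antagonist they stand beside 610 at 10 µM and 744 at 1 µM. These lists were chosen with earlier results of these data known, so the counts are a description. Several genes are shared between lists, so the counts are not of separate gene sets. The prechordal and forebrain lists share otx2a, six3a and six3b, and the forebrain list also holds lhx5, barhl2 and pax6b, which other lists count too. The whole-embryo markers share noto and shha with the prechordal list. Among early neuron differentiation genes, 3 of 15 rose under RA and 0 were called lower (9 at an unadjusted p under 0.05; list median 0.09). The zinc finger genes myt1a (1.71 ± 0.17 SE) and insm1b (1.09 ± 0.18) rose, as did the proneural gene ascl1b (0.64 ± 0.18). The call of ascl1b was lost when most single arrays were left out in turn (adjusted p up to 0.172). It was also lost with quantile normalization (adjusted p = 0.0592), median centring (0.0570) and no filter (0.0555). The 2-group fit (0.0721) and the trended robust fit (0.0521) lost it too. Other members had lower means with RA and were not called. Among them were ascl1a (log2 mean 5.42 with DMSO and 4.49 with RA), neurod1 (4.91 and 4.33) and tubb5 (9.30 and 8.85). Summed over the 15 genes, the signal was 4011 to 4623 on RA arrays and 3235 to 3632 on DMSO arrays. The sum is of linear intensities, so bright genes weigh most, myt1a among them (log2 mean 7.90 with DMSO and 9.61 with RA). It does not stand for a rise across the list. The pan-neuronal gene elavl3 had 0.54 ± 0.25 (SE; adjusted p = 0.367). Of 4 tested motor neuron genes, olig2, a motor neuron progenitor factor, rose by 1.11 ± 0.22 (SE), and nkx2.2b, a ventral neural tube gene, was at least 3.83-fold lower.

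Of 24 listed Rohon-Beard and trigeminal genes only 3 were tested, and under RA limma called 0 of them (1 at an unadjusted p under 0.05). With the antagonist, neurog1, the proneural gene needed for these sensory neurons, fell by 1.47 ± 0.22 at 10 µM (SE; limma adjusted p = 0.00319) and by 1.34 ± 0.22 at 1 µM (SE; adjusted p = 0.0167, or 0.0519 without replicate 4 of that dose and 0.424 in a fit of the 2 groups alone). On the antagonist arrays isl1a and isl2a were called at neither dose, and a link between neurog1 and these genes was not tested. With RA the log2 mean of neurog1 was 9.01, above the 8.25 with DMSO, and this change was not called. The placode gene eya1 and the chemokine receptor gene cxcr4b were called at neither dose.

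Of 16 tested genes of the prechordal plate, polster and hatching gland, 8 fell under RA and 0 were called higher (12 at an unadjusted p under 0.05; list median -0.84), where 2.57% of all tested probe sets and 9 of the 18 whole-embryo markers fell. The falls named next are those of organizer and anterior genes, several of which are also expressed in anterior neural tissue. The organizer gene gsc fell by 3.07 ± 0.32, the anterior gene otx2a was at least 3.62-fold lower, six3b fell by 3.17 ± 0.29 and the Nodal inhibitor gene lft1 by 2.54 ± 0.28 (SE). The polster factor gene klf17, named after its value was seen, fell by 1.03 ± 0.12 (SE; limma adjusted p = 1.37e-05), whereas agr2, a gene of secretory cells such as those of the hatching gland, had -0.15 ± 0.26 (SE; adjusted p = 0.890). Other members, named after their values were seen, were also not called: the hatching gland protease gene ctsl.1 (0.04 ± 0.13), xbp1, a factor of secretory cells (-0.12 ± 0.14), and the prechordal Wnt inhibitor gene dkk1b (0.08 ± 0.23, SE). Over the 16 genes the summed signal was 5449 to 5822 with RA and 7655 to 9031 with DMSO; the part of this shift in the fall of isl1a was not tested. With the antagonist limma called 0 of 16 at either dose (1 at an unadjusted p under 0.05 at 10 µM, 0 at 1 µM).

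Of 22 tested forebrain and eye genes, 18 fell and 1 rose under RA (list median -2.02, or -1.75 with 4 genes at their bound), where 2.57% of all tested probe sets fell and 3.18% rose, and the summed signal was 2519 to 3783 with RA and 5897 to 8989 with DMSO. Examples were otx1 (-3.52 ± 0.25 SE), the diencephalic gene barhl2, at least 2.34-fold lower, and the hypothalamic gene nkx2.4b (-1.66 ± 0.12). At 10 µM antagonist, where lhx9 rose, limma called 0 of the 22 (2 at an unadjusted p under 0.05) and the list median was -0.04. Single members had values near that of lhx9 there. Among them, named after their values were seen, were rx2 (0.70 ± 0.23), pax6a (0.58 ± 0.32) and emx3 (0.57 ± 0.21, SE). The second rx2 probe set had a lower value, 0.29 ± 0.17 (SE). A difference between the list and lhx9 was not tested. Dorsal neural tube genes gave 9 lower and 1 higher of 13 under RA, among them olig3, at least 8.89-fold lower, and dbx1a (-3.55 ± 0.31). The second olig3 probe set was at least 1.12-fold lower. For 10 µM and 1 µM antagonist limma called 0 of these 13 (2 and 3 at an unadjusted p under 0.05). The share of either list in the fall of lhx9 was not tested.

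Endoderm and heart field genes were included because isl1 marks pancreatic and second heart field cells later in development. Of 13 endoderm genes 2 fell under RA and 0 rose, the chemokine receptor gene cxcr4a (-1.70 ± 0.22) and the eye and islet gene pax6b (-1.31 ± 0.21, SE). Of 10 heart field genes 2 rose and 3 fell. The pharyngeal and heart field gene tbx1 was at least 4.09-fold lower with RA and rose by 1.24 ± 0.20 at 10 µM and 1.21 ± 0.20 at 1 µM antagonist (SE; limma adjusted p = 0.00604 and 0.0167), the same pair of directions as lhx9 against the shared DMSO arrays. The call of tbx1 at 1 µM was lost without certain single arrays, with an adjusted p up to 0.0720, and in fits of the 2 groups alone its adjusted p was 0.0635 at 10 µM and 0.311 at 1 µM. The islet genes ins and pdx1 reached 8.34 and 5.86 at most on any array.

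**Figure D3:**
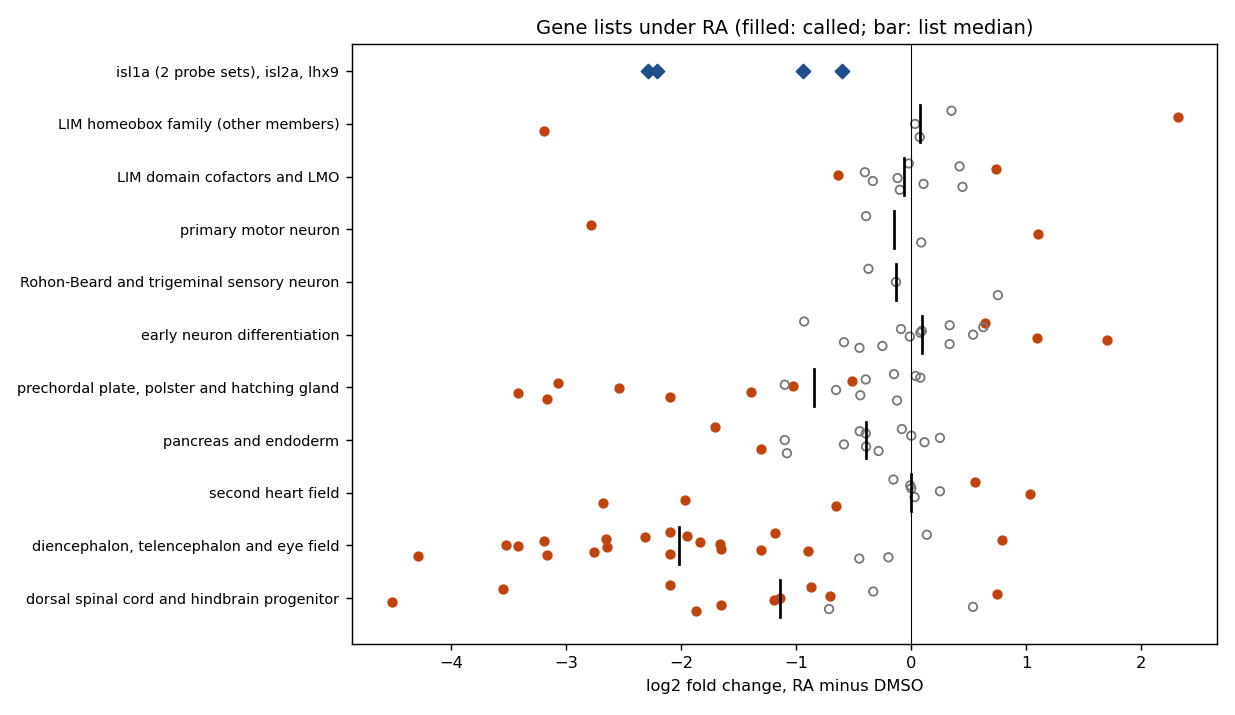
Log2 fold changes of RA minus DMSO (horizontal axis) for the 4 member probe sets (diamonds) and for the tested genes of 10 lists, 1 point per gene; filled points are called and the vertical bar is the list median. Early neuron genes centre on 0.09, prechordal genes on -0.84 and forebrain and eye genes on -2.02.

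Likeness of pattern was measured as the root mean square difference between log2 values over the 16 arrays, each gene centred on its own mean, against 7117 other named genes. Here isl1a was represented by its brighter probe set. For isl1a the nearest gene was isl2a (0.23), and for isl2a it was the homeobox gene six4b (0.17), then isl1a (0.23). The dimmer isl1a probe set lay farther from isl2a, at 0.67. The genes six4b, msgn1, zic2a and fgf3 were among the 5 nearest of both isl1a and isl2a, at 0.17 to 0.31. These genes were chosen for likeness over all 16 arrays, so that their direction under RA follows from the choice and their values are a description: six4b fell by 2.21 ± 0.14, the presomitic mesoderm gene msgn1 by 2.29 ± 0.15 and the neural border gene zic2a by 1.87 ± 0.20 (SE), while the growth factor gene fgf3 was at least 2.19-fold lower. They were called at neither antagonist dose, although fgf3 had 0.48 ± 0.20 at 10 µM and zic2a 0.52 ± 0.20 at 1 µM (SE; limma adjusted p = 0.833 and 0.745).

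By the same choice, which fixes their directions too, the genes nearest to lhx9 were the forkhead gene foxb1b (0.18), tfe3a (0.20), podxl (0.23), nanos1 (0.23) and the cadherin gene cdh11 (0.24). Under RA foxb1b fell by 0.78 ± 0.16, podxl by 0.68 ± 0.17 and cdh11 by 0.54 ± 0.15 (SE). The call of podxl was lost without certain single arrays (adjusted p up to 0.0845). That of cdh11 was lost when most single arrays were left out in turn (adjusted p up to 0.127). For tfe3a and nanos1 the values were -0.56 ± 0.20 and -0.32 ± 0.16 (SE), with adjusted p of 0.139 and 0.432. At 10 µM antagonist all 5 had values above 0, from 0.42 to 0.65, and none was called (lowest limma adjusted p = 0.207). DMSO replicate 3 was the lowest DMSO array for lhx9 and for each of these 5 genes. The dimmer isl1a probe set differed from lhx9 by 0.27 and from the brighter isl1a probe set by 0.66.

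**Figure D4:**
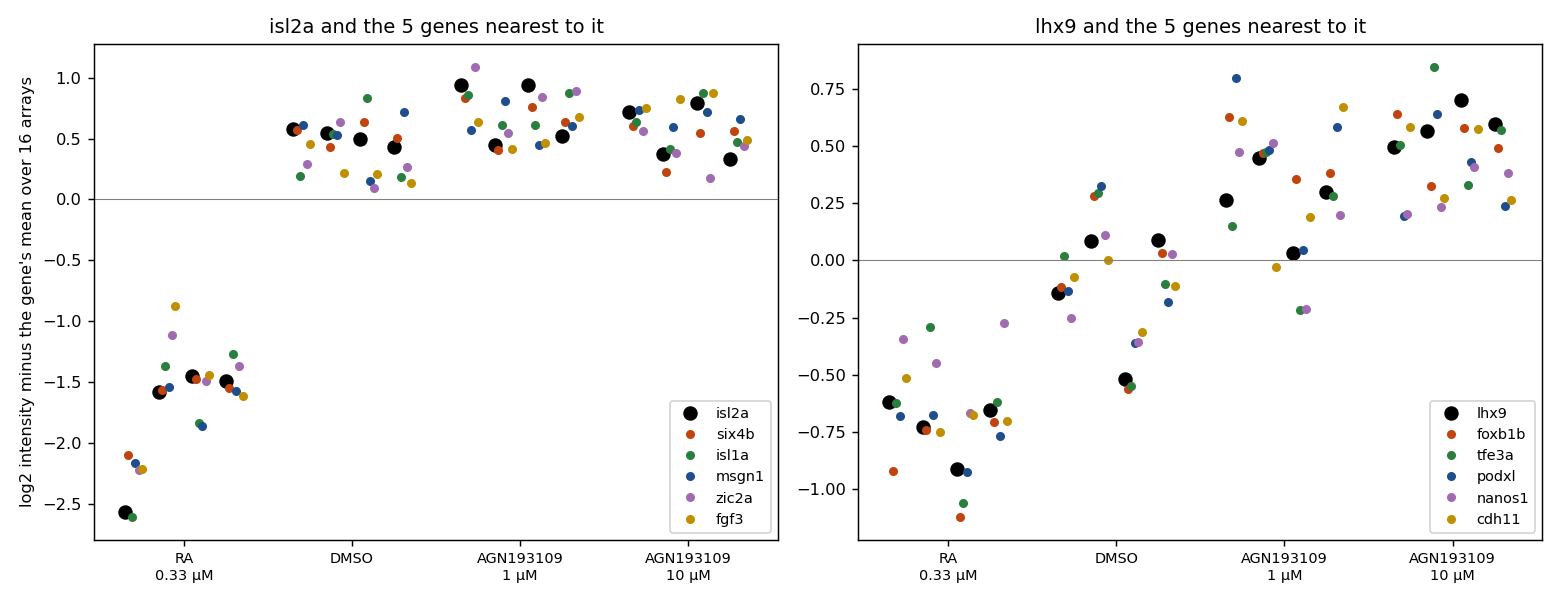
Log2 intensity minus the gene's mean over the 16 arrays (vertical axis) for isl2a and for lhx9 (large black points) and the 5 genes nearest to each, 1 point per gene and array, arrays ordered by replicate number within each group. The isl2a set is low on RA arrays, with replicate 1 lowest for each gene shown, and every array of the other 3 groups lies above them; the lhx9 set runs from RA over DMSO to the antagonist arrays.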

How the data were processed

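Biotin-labelled RNA of 16 samples was hybridised to Affymetrix zebrafish arrays. The authors deposited linear intensity values for each probe set, computed by GCRMA (background correction from probe sequence, normalization between arrays, summary over probes) per the submitters' processing notes; the version, and whether values were scaled further, are not given in the sources used here. Groups and replicate numbers came from sample titles, and the doses in µM from titles and design (the protocol writes mM). Titles spell the antagonist AGN193019; the design and protocol spelling AGN193109 was used.

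From these, log2 intensities were computed. The 115 control probe sets were left out, and the 11843 probe sets above 16 (log2 4) on at least 4 arrays were tested. A limma 3.58.1 model of the 4 groups took in all 16 arrays (R 4.3.3; lmFit, eBayes; 12 residual degrees of freedom), two-sided, with Benjamini-Hochberg adjustment over all tested probe sets within each of 6 comparisons. Adjusted p under 0.05 made a call. Log2 fold changes subtract group means. If no array of the lower group exceeded 16, the fold is a bound against 16. The procedure was tested on simulated data. The number of arrays limits the precision.

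Gene names came from the platform annotation, and Entrez numbers were looked up in the GRCz12tu gene table (10718 matched, 1 changed); 10802 had 1 symbol, 135 several and 4680 none. No coordinates or sequences were used here. Of several probe sets of a list gene, the one of highest mean was used. Members and lists were chosen with earlier results of these data known. Named genes are all member probe sets, the measured LIM homeobox and cofactor genes, up to 4 called genes per list and comparison with the smallest adjusted p, and the 5 genes nearest to each member; not all are described. The 18 differences between member probe sets (6 pairs, 3 comparisons with DMSO) were added after the values were seen and used exact permutation of 4 against 4 arrays, with exact sign flips of same-numbered pairs as an alternative chosen after seeing the data.

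Same-numbered samples of DMSO and RA deviated together from their group means (r = 0.134 to 0.336 in 4 of 4 pairs), so their numbers may pair them. Some differently numbered samples did so too (DMSO replicate 4 with RA replicate 2, r = 0.300), so a pairing is not established. The main fit held no replicate term, and the replicate block was an alternative. For the other comparisons at least 1 pair was below 0.1, and samples share only a number. A pair of further lists was counted. Both were chosen with earlier results of these data known, so their counts are a description and no independent check. Of 18 RA-responsive genes, 13 rose and 4 fell with RA, 1 rose and 7 fell at 10 µM antagonist and 5 fell at 1 µM. Of the 18 whole-embryo markers, 1 rose and 9 fell with RA, and limma called 0 at either antagonist dose (3 at an unadjusted p under 0.05 at each). Alternatives were quantile normalization, median centring, no filter, a filter at 64, a pseudocount of 16, a replicate block, 2-group fits, array weights, a trended robust fit and leaving out each array.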

Additional observations from a re-analysis of the deposited data

Results flagged for a closer look

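In 16 groups of 4 arrays (4 probe sets, 4 groups), 2 held an array far from the other 3, where chance flags about 1 in 20. The isl2a reading of RA replicate 1 (14.3) lay below the others (28.3 to 31.0), with a gap of 0.883 of the group's range on the log2 scale. The reading of DMSO replicate 1 for the dimmer isl1a probe set (47.1) lay below the others (58.3 to 60.4), with a gap of 0.857 of the range. Both exceed Dixon's critical value at the 95% level for 4 arrays.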

How the results depend on the processing

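Of 402 values of the 4 probe sets under all alternatives, 390 kept their direction and their side of the threshold. The falls of isl1a and isl2a under RA did so in every alternative run, with log2 fold changes of -2.38 to -1.79 for the brighter isl1a probe set, -1.03 to -0.67 for the dimmer one and -2.39 to -1.73 for isl2a. For lhx9 under RA, the change of -0.61 was not called in a fit of the 2 groups alone (adjusted p = 0.0550); leaving out single arrays gave -0.74 to -0.54. For lhx9 at 10 µM antagonist, 0.71 was not called in the 2-group fit (adjusted p = 0.114), and leaving out single arrays gave 0.58 to 0.78, with 6 of 8 calls lost. With a filter at 64 lhx9 was not tested. Uncalled values near 0 changed sign without single arrays: isl2a at 10 µM against DMSO ran from -0.0368 to 0.115 (below 0 at -0.0145 and -0.0368), and the dimmer isl1a probe set between the doses from -0.0933 to 0.0695 (above 0 at 0.0361 and 0.0695). The replicate block changed no call of the 4 probe sets; with it, RA gave 804 calls and lhx9 at 10 µM had 0.71 with an adjusted p of 0.0195. With array weights the 681 calls under RA became 1194, the 47 at 10 µM became 255 and the 1048 of RA against 10 µM became 1946. The 47 ran from 29 to 44 without single arrays (29 without DMSO replicate 1, 30 without replicate 1 of the antagonist). The 17 calls at 1 µM were 7 in the 2-group fit and 9 to 17 without single arrays (9 and 11 without DMSO replicates 1 and 2), and the 1 call between doses was 2 after median centring and 1 to 3 without single arrays. Of 857 values of other named genes, 47 lost their call, in 9 of 51 results, and 0 reversed; the causes were not tested. The low signal of lhx9, between 12.7 and 38.8, limits what its fold can show.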
